A study of Mus musculus with 8 samples.

Results

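The 29 genes described here mark the successive stages of the oligodendrocyte lineage in mouse hippocampus, in mice labelled as knockouts (KO) of the kinase gene Dclk3 and in wild-type (WT) mice. They were taken by name, as genes known to mark oligodendrocyte precursors, committed precursors or myelinating cells, from a table of 31417 genes. Earlier results of these data were known when the names were chosen. All 29 were found in the table and all 29 were among the 16228 genes with enough counts to be tested. The names fall into 2 precursor genes, 4 transcription factors of the lineage, 4 genes of committed and early myelinating cells, and 19 genes of myelinating cells. The 19 are made up of 10 proteins of the myelin membrane and sheath, 4 genes of myelin lipid and metabolism, and 5 other mature genes.

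Oligodendrocytes wrap axons of the central nervous system in myelin, a stack of lipid-rich membrane. They arise from precursor cells that persist in the adult hippocampus, carry the PDGF receptor and the proteoglycan NG2, and still divide. A precursor that commits to differentiate switches on the receptor GPR17 and then the factor MYRF, which together with SOX10 turns on the genes of the myelin membrane.

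The samples were 4 KO and 4 WT libraries of poly(A) RNA, each made from a single hippocampus of an adult mouse aged 12 months, with no treatment named in the labels. The sources used here name neither the strain nor the part of Dclk3 that was removed. Library totals lay between 29301974 and 36552757 counts. The lowest count of any of the 29 genes in any library was 29, for Ninj2. Since nothing in the labels ties each library to an animal of its own, a p-value here measures only how far these samples spread, and some of that spread may be technical. Dclk3 itself had 8.19, 9.29, 5.92 and 7.46 CPM (counts scaled to a common library total) in the KO libraries, against 23.0, 39.3, 20.8 and 23.5 CPM in the WT libraries. The genotypes did not overlap, and the KO mean was 28.9% of the WT mean (exact two-sided permutation p = 0.0286, the smallest that 4 against 4 can give). By edgeR the log2 fold change of Dclk3 stood at -1.79 with an SE of 0.22, and its adjusted p was 0.234, while DESeq2 called the gene.

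All lineage stages were present in every library. One library stood apart from its genotype in these genes. WT replicate 1 was the highest of the 4 WT libraries for 22 of the 29 genes, against 23.8% of all genes tested, and for 15 of the 19 myelinating genes. Its Dclk3 level of 23.0 CPM lay within the range of the other 3 WT libraries. The main results on the myelinating genes are therefore given with and without WT replicate 1 below. Over all genes tested, a different library lay furthest out. On the first principal component, the axis along which the libraries differ most (26.7% of the variance), WT replicate 2 stood at 35.8. WT replicate 1 stood at -4.7 there, and the other libraries between -26.1 and 15. Values without WT replicate 2 are also given below.

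Promoter sequences are shown for 5 of the genes, because the stages compared here are set by DNA-binding factors whose letters can be looked for there. Each is the RefSeq window of build GRCm38.p6 from 250 bases before to 50 bases after the annotated start, 5′ to 3′ along the strand of the gene. Capitals mark the letters ACAAT, the core bound by SOX factors, and CTGGCAC or CTGGTAC, bound by MYRF, on either strand. RefSeq windows were matched for 21 of the 29 genes. Hapln2 (chr3:88027462-88027761, minus strand) holds both kinds of letters, Mog (chr17:37023349-37023648, minus strand) and Mag (chr7:30914814-30915113, minus strand) hold a MYRF match, and Mobp (chr9:120149492-120149791, plus strand) and Pdgfra (chr5:75152001-75152300, plus strand) hold neither.
Hapln2: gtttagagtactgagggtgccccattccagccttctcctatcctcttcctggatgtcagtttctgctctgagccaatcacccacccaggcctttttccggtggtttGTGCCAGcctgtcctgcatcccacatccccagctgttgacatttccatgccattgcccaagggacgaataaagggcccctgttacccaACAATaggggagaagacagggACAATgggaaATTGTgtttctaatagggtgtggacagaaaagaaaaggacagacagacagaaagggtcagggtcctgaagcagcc
Mog: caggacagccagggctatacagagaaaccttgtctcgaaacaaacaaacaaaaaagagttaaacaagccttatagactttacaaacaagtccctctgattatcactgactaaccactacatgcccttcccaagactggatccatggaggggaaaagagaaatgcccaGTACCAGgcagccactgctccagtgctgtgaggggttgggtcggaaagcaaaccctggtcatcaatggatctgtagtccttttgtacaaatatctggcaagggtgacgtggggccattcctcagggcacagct
Mag: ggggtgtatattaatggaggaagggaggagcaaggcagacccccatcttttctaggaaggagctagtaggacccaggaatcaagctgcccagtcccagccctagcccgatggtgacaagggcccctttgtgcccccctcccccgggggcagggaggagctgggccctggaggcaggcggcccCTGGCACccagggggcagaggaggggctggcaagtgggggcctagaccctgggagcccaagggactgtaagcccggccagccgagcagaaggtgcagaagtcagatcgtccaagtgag
Mobp: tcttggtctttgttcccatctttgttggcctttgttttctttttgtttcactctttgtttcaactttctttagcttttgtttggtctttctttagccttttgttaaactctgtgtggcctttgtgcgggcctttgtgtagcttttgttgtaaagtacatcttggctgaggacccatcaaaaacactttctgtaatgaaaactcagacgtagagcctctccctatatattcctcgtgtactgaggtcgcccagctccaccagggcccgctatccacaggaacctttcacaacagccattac
Pdgfra: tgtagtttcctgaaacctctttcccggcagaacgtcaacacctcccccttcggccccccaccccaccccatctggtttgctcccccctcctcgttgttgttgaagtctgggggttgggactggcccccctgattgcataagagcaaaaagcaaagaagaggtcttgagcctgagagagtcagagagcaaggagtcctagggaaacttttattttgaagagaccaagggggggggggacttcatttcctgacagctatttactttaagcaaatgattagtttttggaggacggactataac

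The MYRF letters stood in the windows of 6 of the 16 myelinating genes that were matched (37.5%), namely Hapln2, Lpar1, Mag, Cnp, Mog and Opalin. Over all 27025 windows the share was 7.07%. The match began at position -144 from the start in Hapln2, at -83 in Mog, at -68 in Mag, at -81 in Cnp, at -127 in Lpar1 and at 36 in Opalin. None of the 4 matched windows of precursor genes and lineage factors held them. The shorter SOX letters stood in 3 of the 16 myelinating windows (18.8%), in 3 of those 4 windows, of Cspg4, Olig2 and Nkx2-2, and in 31.6% of all windows. A match describes these letters only. The absence of one says nothing of whether a factor binds.

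In level, the lineage was dominated by the myelin membrane. Levels were compared between genes as CPM per kilobase (kb) of exon. Mbp, a myelin basic protein gene whose product holds the cytoplasmic faces of the membrane together, was the highest at 239.5 CPM per kb in KO and 214 CPM per kb in WT. Mobp, coding for another basic myelin protein, followed at 94.5 CPM per kb in KO and 75.5 CPM per kb in WT. The lowest of the 29 was the early lineage factor Nkx2-2, at 0.913 CPM per kb in KO and 0.813 CPM per kb in WT. The precursor receptor Pdgfra stood at 8.06 CPM per kb in KO and 8.35 CPM per kb in WT. In both genotypes Mbp, Mobp, Cnp and Mal were the 4 highest genes, with Mal above Cnp in KO (74.4 against 70.2 CPM per kb) and below it in WT (61.3 against 66.8 CPM per kb). Ninj2, Enpp6 and Nkx2-2 were the 3 lowest in both.

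**Figure D1:**
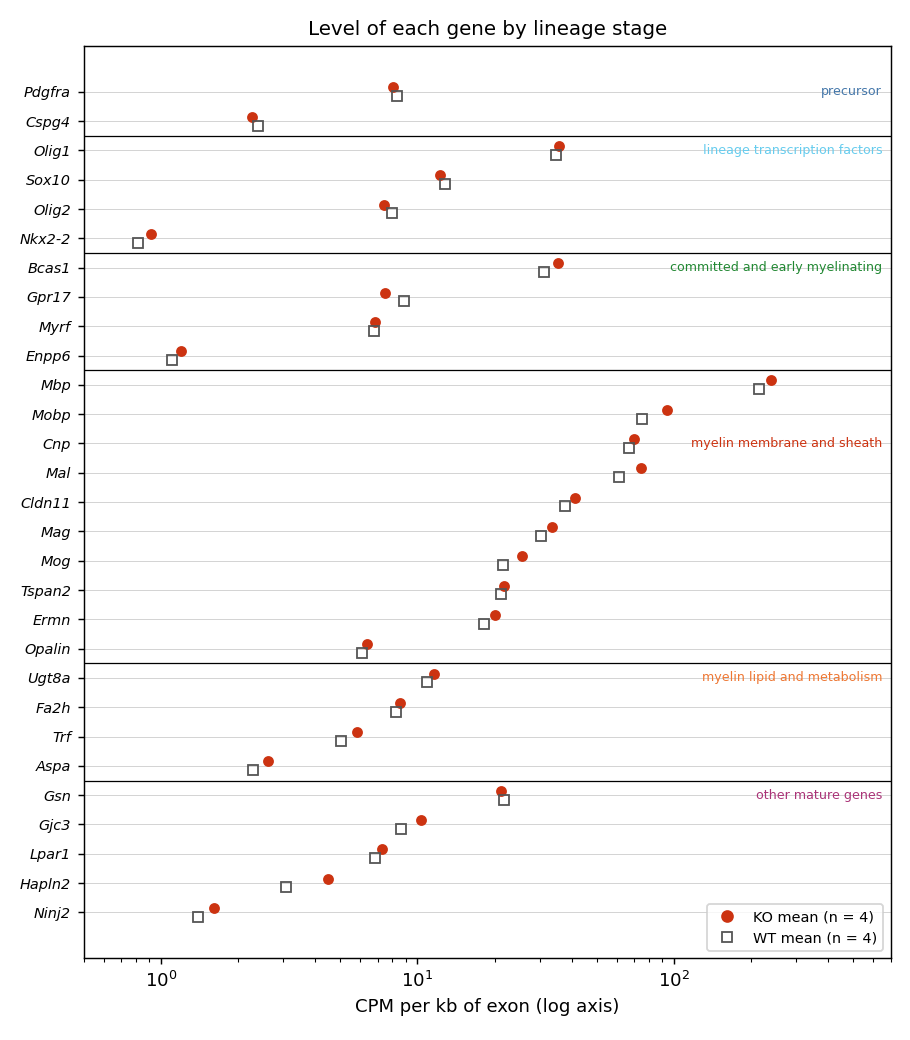
Mean level of each of the 29 genes in CPM per kb of exon (log axis), with KO means as filled circles and WT means as open squares (n = 4 libraries each), grouped by stage. Mbp lies highest and Nkx2-2 lowest in both genotypes, and Gpr17 is the gene of committed precursors whose KO mean lies left of its WT mean.

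None of the 29 genes was called between KO and WT. With edgeR at an adjusted p under 0.05, 0 of the 29 genes passed, and 0.0% of all genes did; their adjusted p values ran between 0.796 and 0.983. DESeq2 called 5 genes over the whole table (0.0308%), none of them among the 29, where the lowest DESeq2 adjusted p was 0.571, for Hapln2. At an unadjusted edgeR p under 0.05, 3 of the 29 genes lay higher in KO, namely Hapln2, Mobp and Trf, while 3.96% of all genes tested did. Gpr17 alone lay lower, against 2.2% of all genes. Of all genes, 1.88% had all 4 KO libraries above all 4 WT libraries and 1.92% had them below. None of the 29 did either. The statements on direction that follow are therefore descriptions of means and medians, and no gene is said to have changed.

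By stage, the median fold change was lowest in precursor genes and highest in myelinating genes, a difference that was not tested. Both precursor genes lay below 0, with a median log2 fold change of -0.06. The 4 lineage factors were evenly divided, 2 of 4 above 0, with a median of -0.01. Of the 4 committed genes 3 lay above 0, with a median of 0.07. Of the 19 myelinating genes 18 lay above 0, with a median of 0.15. Over all 16228 genes, 50.1% lay above 0 and the median was 0.0. The genes of a stage vary together across libraries, so these counts are not independent observations.

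**Figure D2:**
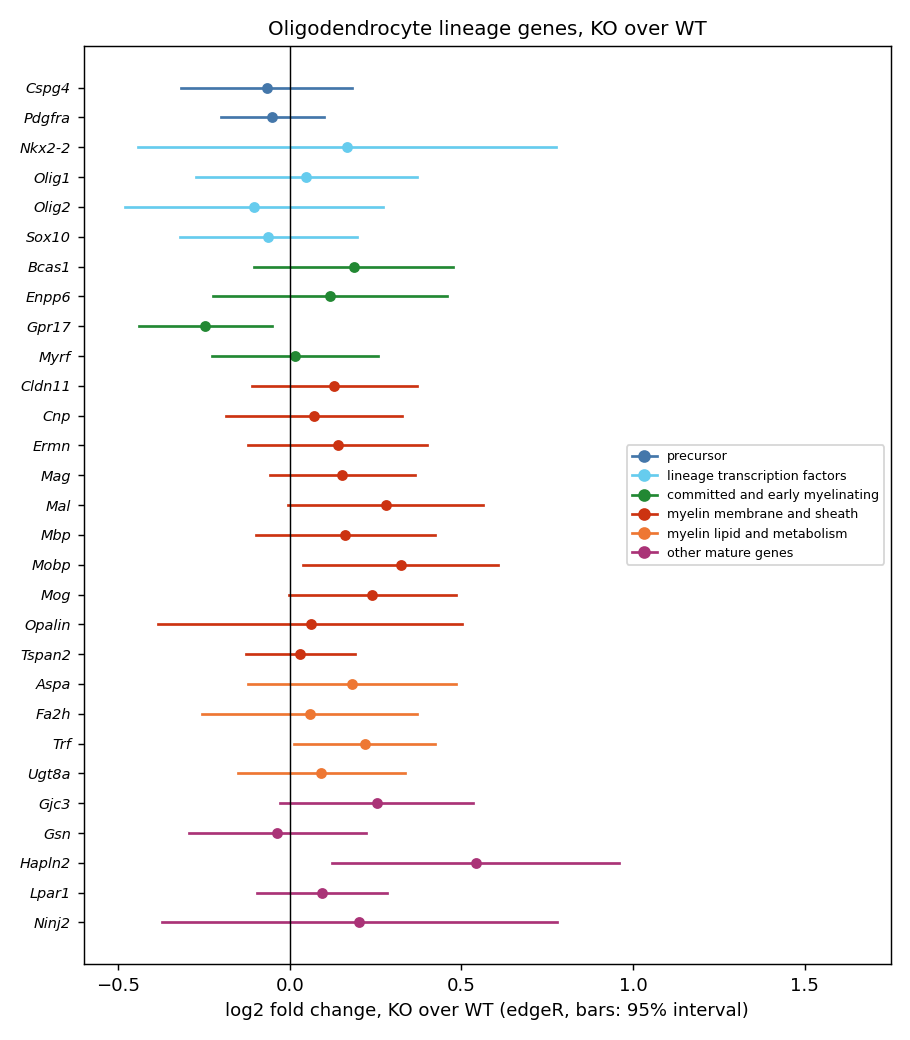
Log2 fold change of each gene, KO over WT, from edgeR, with bars for the 95% interval and colours for the stage. The interval covers 0 for 25 of the 29 genes, and all 10 myelin membrane genes have a point right of 0.

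The precursor genes differed little between the genotypes. Pdgfra (ENSMUSG00000029231), the receptor through which PDGF keeps precursors dividing, had 84.5, 76.4, 78.2 and 84.1 CPM in the KO libraries, against 80.7, 76.2, 90.2 and 87.7 CPM in the WT libraries. All 4 KO values lay inside the WT range. Its log2 fold change was -0.05 (SE 0.07; 95% interval -0.20 to 0.10). Its exons overlap Mir7025 on the same strand and Gm42803 on the other, and how shared reads were counted is not known. Cspg4 (ENSMUSG00000032911), which codes for the NG2 proteoglycan and is also found in pericytes, had 28.2, 23.8, 26.9 and 29.7 CPM in KO, against 29.9, 22.4, 28.7 and 32.7 CPM in WT. Here too every KO library lay inside the WT range. The log2 fold change was -0.07 (SE 0.11; 95% interval -0.32 to 0.18).

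The transcription factors of the lineage gave no common direction. Olig1, which supports maturation and repair of myelinating cells, averaged 77.4 ± 13.8 CPM in KO and 74.9 ± 11.9 CPM in WT (SD, n = 4 each), a log2 fold change of 0.05. Olig2, which specifies the lineage, averaged 18.8 ± 2.75 CPM in KO and 20.2 ± 4.79 CPM in WT, a log2 fold change of -0.10. Sox10, needed for the expression of myelin genes, had 41.09, 39.34, 40.03 and 29.5 CPM in KO libraries, against 45.5, 36.0, 35.3 and 39.8 CPM in WT libraries. KO replicate 4 was the lowest of all 8, and the log2 fold change was -0.06. Nkx2-2, a factor of the step into differentiation, averaged 2.63 ± 0.835 CPM in KO and 2.34 ± 0.786 CPM in WT, a log2 fold change of 0.17 with the widest interval of the 29 genes, -0.44 to 0.78. Its exons overlap the antisense gene Nkx2-2os, whose reads may be counted with its own. KO replicate 4 was the lowest library for 3 of these 4 factors and WT replicate 1 the highest for 3 of 4.

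Among the genes of committed precursors, Gpr17 and the rest pointed apart. Gpr17 (ENSMUSG00000052229, mm10 chr18:31942997-31949636), a receptor that marks committed precursors and is lost as they mature, had 37.7, 35.5, 44.4 and 37.3 CPM in the KO libraries, against 49.3, 49.8, 41.1 and 43.4 CPM in the WT libraries. KO replicates 1, 2 and 4 lay below every WT library, and KO replicate 3 lay above WT replicates 3 and 4. The fitted KO level was 0.843 of the WT level, with a log2 fold change of -0.25 (SE 0.09; 95% interval -0.44 to -0.05; adjusted p = 0.796 by edgeR). Gpr17 overlaps exons of Lims2 on the other strand, and the kit was stranded but the strand setting of the counting is not given in the sources used here, so reads of Lims2 cannot be told apart from its own.

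Bcas1, which marks cells that are beginning to form myelin, averaged 134 ± 13.7 CPM in KO and 117 ± 22.8 CPM in WT, a log2 fold change of 0.19. Its exons overlap antisense transcripts, with the same limit. Enpp6, a choline phosphodiesterase of newly formed oligodendrocytes, had 6.88, 8.80, 8.48 and 6.66 CPM in KO libraries, against 8.77, 7.54, 6.33 and 5.71 CPM in WT libraries. The genotypes overlapped over most of their range, with a log2 fold change of 0.12 (SE 0.15). Myrf, the factor that switches on myelin genes, averaged 58.6 ± 5.21 CPM in KO and 57.9 ± 9.03 CPM in WT, a log2 fold change of 0.02.

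All 10 genes of the myelin membrane and sheath had a KO mean above the WT mean, with log2 fold changes between 0.03 and 0.32 and a median of 0.15. Mobp (ENSMUSG00000032517, mm10 chr9:120149707-120181484) had 582, 660, 689 and 658 CPM in the KO libraries, against 670, 445, 445 and 508 CPM in the WT libraries. KO replicate 3 alone lay above all WT libraries, because WT replicate 1 was higher than the other 3 KO libraries. The log2 fold change was 0.32 (SE 0.13; 95% interval 0.04 to 0.61; adjusted p = 0.796 by edgeR). Mobp shares exons with the predicted gene Gm38642 on the same strand, and how such reads were counted is not given in the sources used here. Mobp lies 8.70 Mb from Dclk3 on chromosome 9, and Trf, described below, lies 8.25 Mb from it on the other side.

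Mbp (ENSMUSG00000041607) had 1970, 2149, 2109 and 1886 CPM in KO, against 2285, 1585, 1549 and 1831 CPM in WT. Each KO library lay above WT replicates 2, 3 and 4 and below WT replicate 1. Its log2 fold change was 0.16 (SE 0.12; 95% interval -0.10 to 0.42). Mog (ENSMUSG00000076439), coding for a glycoprotein on the outer face of the sheath and a late marker of maturation, had 37.3, 46.4, 46.3 and 44.4 CPM in KO, against 43.8, 30.8, 34.6 and 38.2 CPM in WT. KO replicates 2, 3 and 4 lay above all WT libraries, and KO replicate 1 lay among them. The log2 fold change was 0.24 (SE 0.11; adjusted p = 0.796 by edgeR).

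Mal (ENSMUSG00000027375), a proteolipid that sorts membrane to the sheath, had 176, 208, 213 and 231 CPM in KO, against 216, 149, 149 and 167 CPM in WT. All 4 KO libraries lay above WT replicates 2, 3 and 4, and the log2 fold change was 0.28 (SE 0.13; adjusted p = 0.796 by edgeR). Mag (ENSMUSG00000036634), the adhesion molecule of the innermost myelin layer facing the axon, had 129, 153, 144 and 123 CPM in KO, against 143, 114, 110 and 126 CPM in WT. The ranges overlapped, and the log2 fold change was 0.15 (SE 0.10; adjusted p = 0.797 by edgeR).

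The other 5 membrane genes lay closer to 0. Cldn11, the tight junction protein that seals the layers of myelin, had a log2 fold change of 0.13. Ermn, a cytoskeletal protein of late oligodendrocytes, stood at 0.14, and Cnp, an enzyme of the cytoplasmic channels of myelin, at 0.07. Opalin, a transmembrane glycoprotein of myelinating cells, stood at 0.06, with 12.3 CPM in KO replicate 4 and 25.3 CPM in KO replicate 2 as the extremes of all 8 libraries. Tspan2, a tetraspanin of the sheath, stood at 0.03. Exons of Cnp, Ermn and Tspan2 overlap those of other genes on the opposite strand, with the limit given for Gpr17.

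The 4 genes of myelin lipid and metabolism also all lay above 0. Trf (ENSMUSG00000032554, mm10 chr9:103204001-103230444) codes for transferrin, the iron carrier that oligodendrocytes make in the brain. It had 17.0, 19.7, 22.0 and 18.9 CPM in the KO libraries, against 17.4, 18.2, 15.3 and 15.8 CPM in the WT libraries. KO replicates 2, 3 and 4 lay above all WT libraries. The log2 fold change was 0.22 (SE 0.09; 95% interval 0.01 to 0.42; adjusted p = 0.796 by edgeR). Transferrin is also made by choroid plexus, whose markers are given below. Trf was the only one of these 4 genes with an unadjusted edgeR p under 0.05 in the main fit. With the choroid plexus score in the model none of the 4 had one, and none did with a block for the replicate number. The same held without KO replicate 2, KO replicate 3, WT replicate 3 or WT replicate 4. The part of choroid plexus in the Trf values was not tested. Ugt8a, which makes galactosylceramide, the main glycolipid of myelin, had a log2 fold change of 0.09. Fa2h, which hydroxylates the fatty acids of that lipid, stood at 0.06, and Aspa, which frees acetate from N-acetylaspartate for lipid synthesis, at 0.18.

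Of the 5 other mature genes, 4 lay above 0. Hapln2 (ENSMUSG00000004894), a link protein of the extracellular matrix at nodes of Ranvier, had 12.7, 13.2, 9.13 and 7.55 CPM in the KO libraries, against 9.05, 6.73, 7.13 and 6.35 CPM in the WT libraries. KO replicates 1, 2 and 3 lay above all WT libraries, and KO replicate 4 lay between WT replicate 1 and the other 3. Its log2 fold change of 0.54 (SE 0.19; 95% interval 0.12 to 0.96; adjusted p = 0.796 by edgeR) was the largest of the 29 genes. Gjc3 (ENSMUSG00000056966), a connexin of oligodendrocytes, had 44.1, 47.5, 45.1 and 43.1 CPM in KO, against 49.2, 30.5, 34.7 and 36.4 CPM in WT. The KO values were close together, below WT replicate 1 and above the other 3 WT libraries, with a log2 fold change of 0.25 (SE 0.13; adjusted p = 0.796 by edgeR).

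Ninj2, an adhesion molecule, had a log2 fold change of 0.20 at a level of 1.51 ± 0.412 CPM in KO and 1.31 ± 0.330 CPM in WT. Lpar1, a receptor for lysophosphatidic acid, stood at 0.09. Gsn, the actin-severing protein gelsolin, was the only myelinating gene below 0, at -0.04, and is also made by other cells of the brain.

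**Figure D3:**
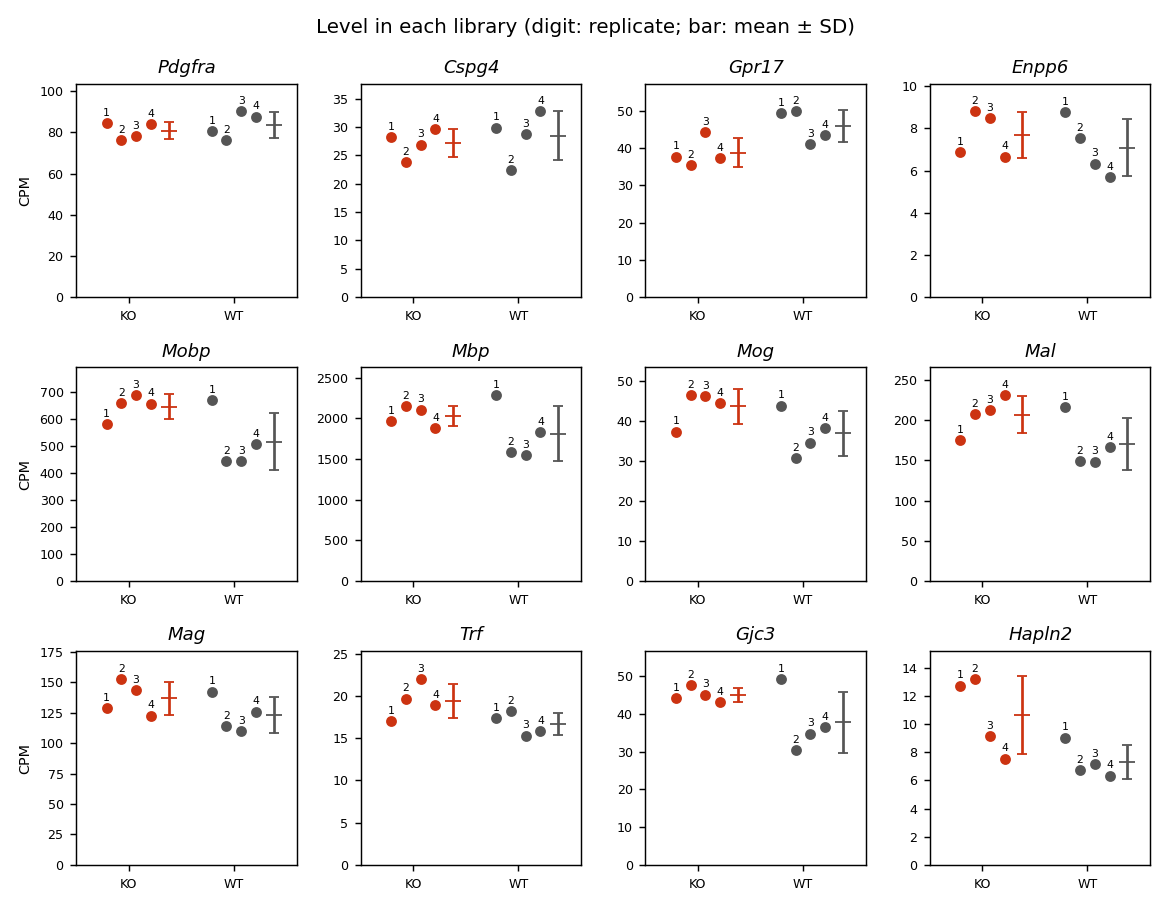
CPM of 12 genes in each library, KO left and WT right, with the replicate number above each point and the mean ± SD beside each group (n = 4). In Mobp, Mbp, Mal and Gjc3 the WT point numbered 1 sits among or above the KO points, while WT points 2, 3 and 4 sit below all of them.

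The mature genes varied together across libraries, and the split did not follow genotype alone. Of the 19 myelinating genes, the number above their own median over the 8 libraries was 8, 17, 17 and 10 in KO replicates 1 to 4, against 17, 2, 2 and 3 in WT replicates 1 to 4. Their mean centred log2 CPM, a score on which 0 is the mean of all 8 libraries, was 0.02, 0.19, 0.15 and -0.02 in KO, against 0.17, -0.23, -0.19 and -0.10 in WT. WT replicate 1 thus stood with KO replicates 2 and 3, and the other 3 WT libraries lay below all KO libraries. Summed over the 19 genes, KO libraries held between 3637 and 4045 CPM and WT libraries between 2981 and 4232 CPM. In bulk tissue, fewer cells of a type and less RNA per cell cannot be told apart.

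The spread of the 2 genotypes was unequal in these genes. The SD of CPM was smaller in KO than in WT for 13 of the 19 myelinating genes and for 20 of the 29, against 43.1% of all genes tested. Most of this rested on WT replicate 1. Without it the counts were 8 of 19 and 13 of 29, against 42.5% of all genes. WT replicate 1 was singled out for its high values in these genes, so leaving it out tends to lower their WT SD. That choice was not made on the values of all genes, so their share is no measure of its effect. The coefficient of variation of Gjc3 was 4.26% in KO and 21.3% in WT, or 9.08% in WT without replicate 1. That of Mbp was 6.04% in KO and 18.7% in WT, or 9.29% in WT without replicate 1. Opalin went the other way, with 28.5% in KO and 14.7% in WT, or 16.6% in WT without replicate 1. Hapln2 did so too, with 25.8% in KO and 16.4% in WT, or 5.82% in WT without replicate 1.

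**Figure D4:**
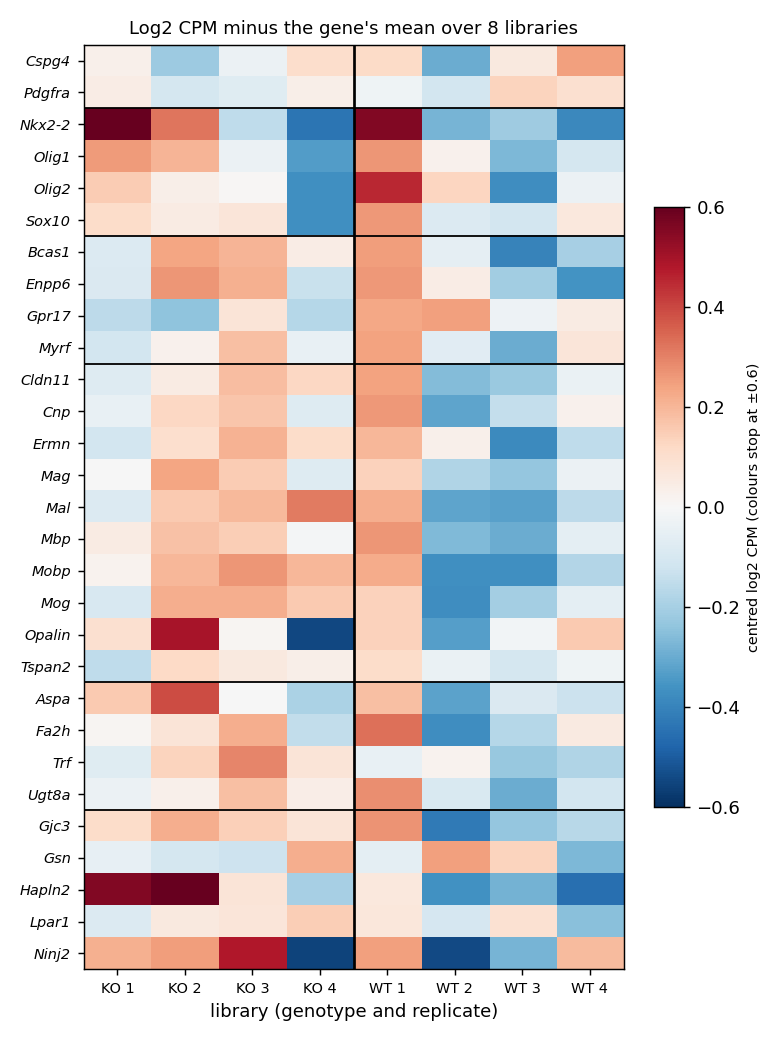
Log2 CPM of each gene minus its mean over the 8 libraries, with KO libraries left of the line and WT libraries right, and the stages separated by horizontal lines. WT 1 is above the mean for most genes, WT 2 and WT 3 are below it for most myelinating genes, and the precursor rows at the top do not follow that split.

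The comparison of stages within a library removes what moves all stages alike. The myelinating score minus the precursor score was -0.02, 0.34, 0.21 and -0.08 in KO replicates 1 to 4, against 0.13, -0.02, -0.29 and -0.27 in WT replicates 1 to 4. The means were 0.11 ± 0.20 in KO and -0.11 ± 0.20 in WT (SD, n = 4 each), and KO replicates 1 and 4 lay inside the WT range. Without WT replicate 1 the WT mean was -0.19 ± 0.15 (SD, n = 3). The precursor score rests on 2 genes, and its values were 0.04, -0.16, -0.05 and 0.07 in KO, against 0.05, -0.20, 0.10 and 0.17 in WT. No test was made of these scores.

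The size of the myelin difference depended on WT replicate 1. Without it, the median log2 fold change of the 19 myelinating genes was 0.24 and 18 of 19 again lay above 0. At an unadjusted edgeR p under 0.05, 11 of the 29 genes then lay higher in KO, 10 of them myelinating genes and the other Bcas1, against 4.0% of all genes in that fit. The lowest p values were those of Mobp, with a log2 fold change of 0.47, and Gjc3, with 0.41, each at an edgeR adjusted p of 0.555. All 4 KO libraries then lay above the other 3 WT libraries for Mobp, Mbp, Mal, Ugt8a, Gjc3 and Hapln2, 6 of the 29 genes, against 4.16% of all genes. Still none of the 29 genes was called, and 1 gene was over the whole table (0.00608%). This library was singled out after its values were seen, so the comparison without it is a description.

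Other libraries moved these values too. With one other library left out at a time, the median of the 19 genes lay between 0.09 without KO replicate 3 and 0.20 without KO replicate 4, against 0.15 with all libraries, and none of the 29 genes was called. Of the 19 genes, 16 lay above 0 without KO replicate 2 and 16 without WT replicate 2. Without WT replicate 2 their median was 0.11, and Cnp (-0.01), Fa2h (-0.04) and Opalin (-0.03) lay below 0. In that fit 2 of the 19 had an unadjusted edgeR p under 0.05, against 751 of all 16447 genes tested. The number of genes at an unadjusted p under 0.05 was 0 without KO replicate 2, against 4 with all libraries. Gpr17 lay lower in KO in every such fit, with log2 fold changes between -0.32 and -0.20, and Hapln2 higher, between 0.43 and 0.67. For 10 of the 29 genes the sign turned in at least 1 such fit, among them Olig1, Sox10, Nkx2-2 and Myrf. Olig2 turned only without WT replicate 1.

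**Figure D5:**
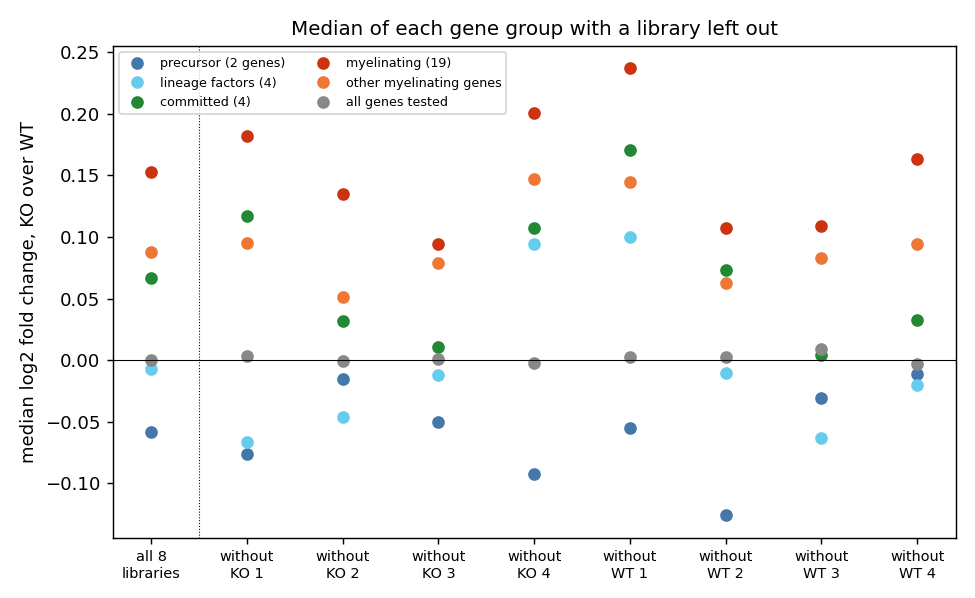
Median log2 fold change, KO over WT, of each gene group with all 8 libraries and with each library left out in turn. The median of the 19 myelinating genes stays above 0 throughout, between 0.09 and 0.24, while the medians of precursor genes and of all genes tested stay near or below 0.

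Other genes of the lineage, listed with earlier results of these data known, gave smaller differences in the same order. Of 16 other precursor genes, 6 lay above 0, with a median log2 fold change of -0.04. Of 15 other committed genes tested, 9 lay above 0, with a median of 0.02. Of 36 other myelinating genes tested, 30 lay above 0, with a median of 0.09. None was called. Sulf2, a sulfatase that edits heparan sulfate and is also made by neurons, was the only one with an unadjusted p under 0.05. It had 103, 103, 117 and 122 CPM in KO, against 117, 143, 125 and 132 CPM in WT, a log2 fold change of -0.21 (SE 0.08; adjusted p = 0.796 by edgeR). WT replicate 1 was the only WT library inside the KO range.

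Markers of other cells are given beside these results, since a dissection holds them in varying amounts. The 12 choroid plexus markers summed to between 198.3 and 3544 CPM in KO libraries and between 79.26 and 2305 CPM in WT libraries, high in KO replicates 2 and 3 and in WT replicates 2 and 3. Of these 12 markers 11 lay above 0, with a median log2 fold change of 0.33, higher than that of the myelinating genes. Their SEs were wide, between 0.557 for Kl and 1.397 for Ttr, and KO replicate 2 was the highest library for 10 of the 12. The myelinating score was high in KO replicates 2 and 3 and low in WT replicates 2 and 3. With the choroid plexus score in the model the median of the 19 genes was 0.155, against 0.153 without it. That median does not show how single genes moved. Astrocyte markers had 8 of 10 genes above 0 with a median log2 fold change of 0.08, microglial markers 10 of 10 with 0.07, and endothelial markers 10 of 10 with 0.07. Pericyte and fibroblast markers had 5 of 10 above 0 with a median of 0.01, and ependymal markers 5 of 9 with 0.02. Neuronal markers had 1 of 10 above 0 with a median of -0.10. At an unadjusted edgeR p under 0.05, 2 of the 10 lay lower in KO, Gad1 and Slc17a7, against 2.2% of all genes. For Gad1 all 4 KO libraries lay below all 4 WT libraries, as for 1.92% of all genes. At the same threshold the ependymal marker Ccdc39 lay higher in KO, against 3.96% of all genes. Of the markers of Schwann cells, which make myelin in peripheral nerve, 1 of the 5 tested lay above 0, with a median of -0.08. WT replicate 1 was above the 8-library median for 10 of 10 astrocyte and 10 of 10 microglial markers, and WT replicate 2 held 1805 CPM of the astrocyte filament gene Gfap against 442 to 578 CPM in the other libraries. The part of these cells in the myelin values was not tested.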

How the data were processed

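Poly(A) RNA of mouse hippocampus was sequenced in 8 stranded libraries, 4 KO and 4 WT, made with 1000 ng of total RNA and 12 PCR cycles, per the labels' protocols. The authors deposited whole-number read counts per Ensembl gene, 1 raw column per library, without normalization, per the file headers. The submitters' processing notes name bcl2fastq 2.17.1.14 and the build mm10. As these sources give no aligner, counter, annotation or strand setting, reads shared by overlapping genes cannot be assigned here.

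KO was compared with WT over 16228 genes with edgeR 4.0.16 in R 4.3.3 (TMM, filterByExpr, robust quasi-likelihood F test, Benjamini-Hochberg adjustment, called at an adjusted p under 0.05). CPM use TMM-scaled library sizes. CPM per kb divide by the union exon length of GENCODE M21, which also gave positions. Intervals are 95%, from the same fit, and carry no adjustment for the number of genes. Totals of 29301974 to 36552757 counts limit precision through counting error, and without molecular identifiers PCR copies count as separate reads. The procedure was tested on simulated counts first.

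The 29 genes, the other lists and the naming rule were chosen with earlier results of these data known. All 29 are named. Values in every library are given for 7 genes set by name and the 8 with the lowest p. Outside that rule they are also given for Sox10, which is flagged below. The genes named with WT replicate 1 left out were chosen after their values were seen. Alternatives were DESeq2 1.42.0, limma-voom (limma 3.58.1) with quality weights, DESeq2 size factors, upper quartile factors, no filter, a filter of 1 CPM in 4 libraries, a block for the replicate number, the choroid plexus score as covariate, a threshold of 0.1, and each library left out.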

Additional observations from a re-analysis of the deposited data

Results flagged for a closer look

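In 3 of the 60 groups of 4 libraries checked, 1 library lay far from the other 3, where chance alone gives about 1 in 20 groups. Sox10 had 29.5 CPM in KO replicate 4, against 39.34 to 41.09 CPM in the other KO libraries. Nkx2-2 had 3.507 CPM in WT replicate 1, against 1.823 to 2.056 CPM in the other WT libraries. Dclk3 had 39.3 CPM in WT replicate 2, against 20.84 to 23.46 CPM in the other WT libraries.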

How the results depend on the processing

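None of the 29 genes was called under any of the alternatives, where the lowest adjusted p of a member was 0.23, for Hapln2. Over all genes, edgeR called 0, DESeq2 5 and the fit with replicate block 1, and fits without one library called between 0 and 1. Dclk3 passed the threshold by DESeq2 (log2 fold change -1.79), with the replicate block (-1.76) and without WT replicate 2 (-1.54). For a check of pairing, each gene's log2 CPM was taken as its deviation from the mean of its own genotype. These deviations correlated between same-numbered KO and WT libraries at 0.139, 0.116, -0.219 and -0.014, so the numbers were not taken as pairs. Genes of the 29 that did not overlap between genotypes numbered 0 to 6 with a library left out, and those with an unadjusted p under 0.05 numbered 0 without KO replicate 2 and 11 without WT replicate 1. Without WT replicate 1, an alternative chosen after seeing the data, the SD was smaller in KO for 13 of the 29 genes, against 20 with all libraries. In the 8 other settings no sign turned, and 18 of 29 genes kept their sign throughout. The sign turned for 11 genes with a library left out, and the cause was not tested, with log2 fold changes of -0.01 to 0.18 for Cnp, -0.162 to 0.006 for Cspg4, -0.041 to 0.195 for Fa2h, -0.123 to 0.048 for Gsn, -0.065 to 0.106 for Myrf, -0.027 to 0.433 for Nkx2-2, -0.026 to 0.152 for Olig1, -0.221 to 0.048 for Olig2, -0.117 to 0.216 for Opalin, -0.104 to 0.036 for Sox10 and -0.003 to 0.09 for Tspan2. With 4 libraries a genotype, the differences seen here were mostly under 0.3 on the log2 scale, and the 95% interval covered 0 for 25 of 29 genes.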
